A study of Gallus gallus with 4 samples.

Results

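The 7 genes described here encode secreted ligands of the activin and TGF-beta class (INHBA, INHBB, TGFB2 and TGFB3), proteins that hold latent TGF-beta (LRRC32 and LTBP1) and a TGF-beta receptor (TGFBR2). They were taken by symbol from a table of 15386 genes, and they were chosen with their anterior and posterior values known, so their differences between the sides are given as descriptions, without a test. RNA came from untreated White Leghorn chickens. The dermal papilla complex of their growing feathers on the back was dissected into an anterior side (2 libraries, A1 and A2) and a posterior side (2 libraries, P1 and P2). Age and sex of the birds, and whether the libraries came from separate birds, are not given in the sources used here, so the spread between libraries may be technical. The study asked how gene expression differs between the sides. Levels are RPKM, read counts scaled to gene length and library size, and can be compared between genes.

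Ligands of this class are made as precursors that pair into dimers, and a furin-type protease cuts the signalling part from its propeptide. Activins are dimers of the inhibin beta subunits encoded by INHBA and INHBB, and follistatin, the product of FST, binds and blocks them. TGF-beta stays bound to its propeptide in a latent complex until it is released, and LTBP1 tethers that complex to the matrix, while LRRC32 (also called GARP) tethers it to the cell surface, a role known from mammalian regulatory T cells and platelets. Released ligand binds a type II receptor such as TGFBR2, which activates a type I receptor and, through it, the SMAD transcription factors. In feather and hair follicles the papilla signals to the overlying epithelium, and activin and TGF-beta ligands are among the growth factors exchanged between these tissues.

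The libraries were not alike in composition. P1 stood apart: the summed level of 9 smooth muscle markers was 3972 RPKM there against 204 to 287 RPKM in the other libraries, and each of the 9 was highest in P1. The low values of P1 came in steps that put its depth at 77.0% of A1, with A2 at 100.1% and P2 at 99.7%. The number of reads is unknown. P1 was the lowest library for 54.5% of 10939 tested genes. The 12 papilla markers summed to 211, 253, 144 and 246 RPKM in A1, A2, P1 and P2. Of 11 tested, 6 had positive and 5 negative differences, anterior minus posterior, on the log2(RPKM + 1) scale. Of all tested genes, 64.6% were positive. The largest differences were those of ALPL and CORIN (1.93 and 1.79). ALPL was present in every library (3.46 to 37.2 RPKM). CORIN measured 6.86 and 2.13 RPKM in A1 and A2 against 0.308 and 0.562 RPKM in P1 and P2. SOX2 did not exceed 0.163 RPKM. Epithelial markers summed to 3265, 1415, 1811 and 1692 RPKM in A1, A2, P1 and P2, so the complex held epithelium as well as mesenchyme. In tissue of mixed cells, fewer cells of a type and less RNA per cell cannot be told apart.

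INHBB was the gene of this set whose 2 sides were each most uniform relative to the gap between them. It measured 2.07 and 1.88 RPKM in A1 and A2 and 0.548 and 0.424 RPKM in P1 and P2. Both anterior libraries lay above both posterior ones, with means of 1.98 ± 0.135 RPKM (SD, n = 2) and 0.486 ± 0.0877 RPKM (SD, n = 2). The anterior mean was 4.07 times the posterior mean, and on the log2(RPKM + 1) scale the difference, anterior minus posterior, was 1.003 ± 0.262 (standard error). The pseudocount of 1 compresses a gene at this level: with 0.1 in its place the log2 difference was 1.83. The difference was 1.06 without P1 and 0.94 without P2, so P1 did not carry it. Melanocyte markers ran the same way: all 8 tested had positive differences, as did 64.6% of all tested genes. The median of the 8 was 0.41 (0.25 without P1). The summed level of these markers was 44.98, 49.06, 22.89 and 36.78 RPKM in A1, A2, P1 and P2. The sides overlapped for SOX10, MITF, KIT, EDNRB and EDNRB2, and without P1 MITF and KIT turned to -0.19 and -0.03. The melanosome genes PMEL, TYRP1 and MLANA met a 2-fold difference with anterior higher and no overlap, as 0.64% of all tested genes did. None of the 10 listed was at 0, and the pigment enzyme gene TYR did not exceed 0.581 RPKM. Papilla markers were mixed: of 11 tested, 5 had negative differences. For 4 (CORIN, ALPL, LEF1 and HEY1) anterior was higher without overlap, as for 18.9% of all tested genes. Of these, CORIN, ALPL and LEF1 also met a 2-fold difference. The log2 differences of LEF1 and HEY1 were 1.10 and 0.79, or 0.27 and 0.31 without P1. The part of melanocytes and papilla cells in the INHBB values was not tested. INHBB was nevertheless a low gene, at the 36.7th and 35.8th percentile of all genes in A1 and A2 and at the 26.6th and 23.7th in P1 and P2. It reached the expression filter, at least 1 RPKM in at least 2 libraries, only through the anterior side.

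INHBA, the other activin subunit, varied more within the sides than between them. It measured 9.34 and 2.95 RPKM in A1 and A2 and 10.7 and 6.81 RPKM in P1 and P2. A2 alone was low, and the sides overlapped. The anterior mean was 6.15 ± 4.52 RPKM and the posterior mean 8.77 ± 2.76 RPKM (SD, n = 2 each). The log2 difference between them was -0.58 ± 0.51 (standard error). A1 was 3.16 times A2, and without A2 the log2 difference was 0.11, while without A1 it was -1.28. It was -0.29 without P1 and -0.87 without P2. Libraries carry the numbers 1 and 2 on either side, and INHBA was higher in both libraries numbered 1. The same order held for 22.4% of tested genes and for 6 of 12 epithelial markers. KRT75, a keratin of the follicle epithelium, was among the 6. It measured 447 and 114 RPKM in A1 and A2 and 423 and 89.3 RPKM in P1 and P2. The order did not hold for KRT5, CDH1, TP63, ESRP1, DSP and SFN, each lower in P1 than in P2. KRT5 measured 796 and 216 RPKM in A1 and A2 and 182 and 266 RPKM in P1 and P2. The count of markers in the order of INHBA was 7 of 10 for leukocyte and 6 of 9 for smooth muscle markers. It was 3 of 12 for papilla, 2 of 10 for thrombocyte, 1 of 10 for melanocyte and 0 of 12 for endothelial markers. These counts include markers below the expression filter. The part of these cell types in the INHBA values was not tested.

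The ratio of the activin subunits did not overlap between the sides. INHBA was 4.51 and 1.57 times INHBB in A1 and A2, and 19.6 and 16.1 times INHBB in P1 and P2. Of these subunits, INHBB did not overlap between the sides and INHBA did. INHBB was chosen with this contrast known and was low in P1 and P2 (0.548 and 0.424 RPKM), so the ratio is no separate result. FST, the activin antagonist, was far above both subunits, at 97.0, 112, 43.3 and 105 RPKM in A1, A2, P1 and P2, which was 10.4, 37.8, 4.04 and 15.5 times INHBA. The lowest of these ratios was in P1, where FST was lowest and INHBA highest.

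**Figure D1:**
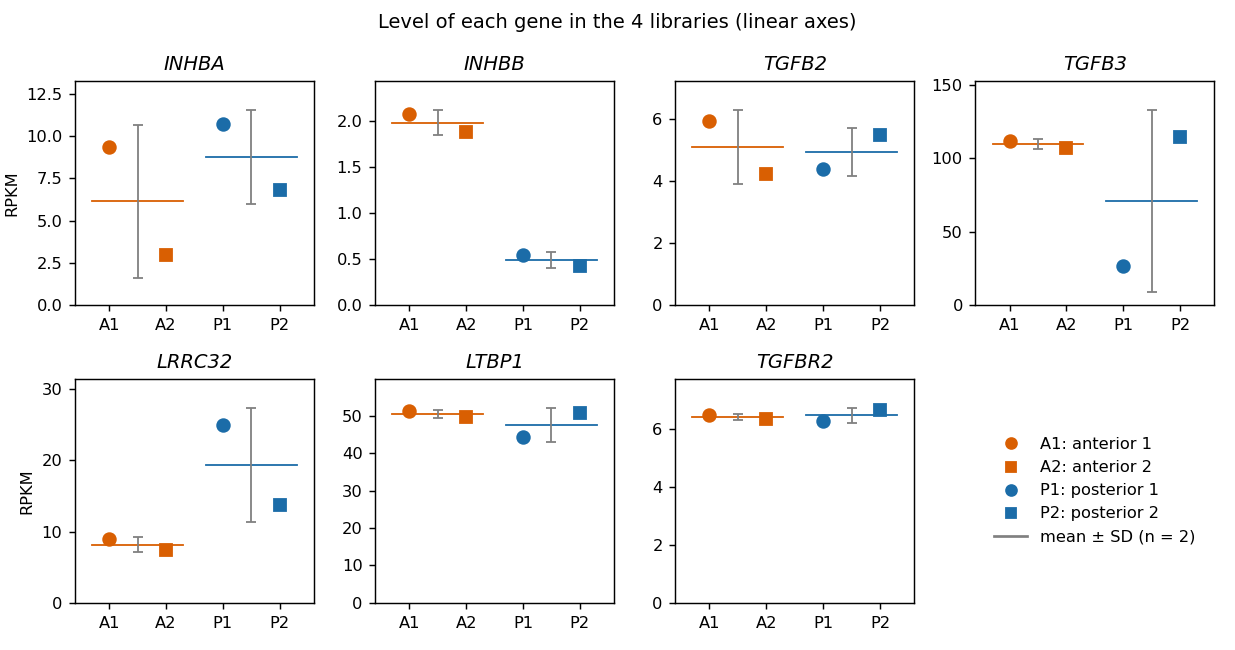
Level of each of the 7 genes in RPKM (vertical axes, linear and starting at 0) in anterior libraries A1 and A2 (orange) and posterior libraries P1 and P2 (blue); horizontal lines are side means and grey bars are the SD (n = 2). INHBB and LRRC32 separate the sides, TGFB3 is low in P1 alone (26.9 RPKM), and LTBP1 and TGFBR2 are nearly level.

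TGFB3 was the most abundant of the 7 genes in 3 of the 4 libraries. It measured 112 and 107 RPKM in A1 and A2 and 26.9 and 114 RPKM in P1 and P2. P2 was the highest library and P1 the lowest by a wide margin, so the posterior libraries lay on both sides of the anterior ones. The means were 109.6 ± 3.297 RPKM for the anterior side and 70.7 ± 62.0 RPKM for the posterior side (SD, n = 2 each), and the log2 difference was 0.96 ± 0.66 (standard error). Without P1 the difference was -0.06, and without P2 it was 1.99. TGFB3 stood at the 97.4th to 97.5th percentile of all genes in A1, A2 and P2, and at the 88.8th in P1.

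TGFB2 was expressed at a much lower level than TGFB3 and overlapped between the sides. It measured 5.92 and 4.23 RPKM in A1 and A2 and 4.39 and 5.47 RPKM in P1 and P2. The values interleaved, with means of 5.08 ± 1.19 RPKM and 4.93 ± 0.769 RPKM (SD, n = 2 each) that differed by 0.03 ± 0.28 (standard error) on the log2 scale. That sign turned to -0.09 with median ratio scaling and -0.13 with quantile normalization. The ratio of TGFB3 to TGFB2 was 18.9, 25.3 and 20.9 in A1, A2 and P2 and 6.12 in P1.

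LRRC32 was the gene of the set that was higher in posterior tissue in every pairing of libraries. It measured 8.96 and 7.40 RPKM in A1 and A2 and 25.01 and 13.74 RPKM in P1 and P2. Both posterior libraries lay above both anterior ones, and P1 was 1.82 times P2. The anterior mean was 8.18 ± 1.11 RPKM and the posterior mean 19.4 ± 7.97 RPKM (SD, n = 2 each), 2.37 times as much, and their log2 difference was -1.10 ± 0.35 (standard error). Without P1 the log2 difference was -0.69, and P2 alone was 1.68 times the anterior mean. Without P2 it was -1.51.

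Cell types in which LRRC32 is known to be expressed in mammals were set beside it. Endothelial markers summed to 180, 187, 202 and 189 RPKM in A1, A2, P1 and P2, and none of the 12 was at 0. Of the 12, 8 had higher anterior and 4 higher posterior means on the log2 scale, with a median difference of 0.15 (-0.0057 without P1), and 7 were lowest in P1. The sides did not overlap for 4 with posterior higher (PECAM1, CDH5, TEK and ERG), as for LRRC32, and for 2 with anterior higher (TIE1 and CLDN5), where 7.25% and 18.9% of all tested genes did so. PECAM1, an endothelial adhesion molecule, was the most unequal of the 4, at 39.2 and 33.5 RPKM against 70.1 and 40.5 RPKM. The endothelial cadherin CDH5 measured 30.7 and 28.3 RPKM against 45.5 and 31.5 RPKM. The log2 differences of PECAM1 and CDH5 were -0.54 and -0.35, and those of TEK and ERG -0.11 and -0.12. Going the other way, TIE1 measured 8.11 and 8.35 RPKM against 3.47 and 7.09 RPKM, a log2 difference of 0.62. That of CLDN5 was 0.23. The largest of the 12 was 0.72 for ESAM, whose sides overlapped. Thrombocyte markers summed to 61.9, 53.0, 44.5 and 40.5 RPKM in the same order, or 28.6, 31.2, 24.6 and 22.7 RPKM without THBS1, which is also a latency gene and is not specific to thrombocytes. The defining integrin ITGA2B did not exceed 0.295 RPKM, but ITGB3 measured 8.59 to 12.96 RPKM and TUBB1 6.50 to 9.09 RPKM. Of 10 thrombocyte markers in the data, 6 were tested, THBS1 among them. All 6 had positive differences, opposite in sign to that of LRRC32, with a median of 0.16 (0.28 without P1). Of all tested genes, 64.6% were positive. For 2 of the 6, ITGB3 and THBS1, anterior was higher without overlap. Leukocyte markers summed to 318, 376, 377 and 338 RPKM, most of it from CD74 (listed as II) at 254, 314, 290 and 280 RPKM. Of 8 tested, 3 had positive and 5 negative differences, with a median of -0.03 (0.02 without P1), and all 8 overlapped between the sides. In P1, 4 of the 8 were highest, as were 26.5% of all tested genes. Among the 4 was SPI1, at 22.6 RPKM against 6.90 to 9.65 RPKM elsewhere. The T cell gene CD3E measured 4.58, 3.50, 3.99 and 3.46 RPKM. In P1, where LRRC32 was highest, the smooth muscle markers were highest too. In P2, where LRRC32 was also above both anterior libraries, their summed level was the lowest, at 204 RPKM. The part of endothelial, thrombocyte, leukocyte and smooth muscle cells in the LRRC32 values was not tested.

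LTBP1, the matrix tether, was abundant and nearly level. It measured 51.3 and 49.7 RPKM in A1 and A2 and 44.4 and 50.7 RPKM in P1 and P2. P1 was the lowest library, the sides overlapped, and the log2 difference was 0.088 ± 0.24 (standard error), or -0.0067 without P1, 0.10 after quantile normalization and -0.053 after median ratio scaling, which moves the median of all genes by 0.12 toward posterior. Its CV over the 4 libraries was 6.47%. With LRRC32 higher and LTBP1 level, the ratio of LTBP1 to LRRC32 was 5.72 and 6.72 in A1 and A2 and 1.77 and 3.69 in P1 and P2. The matrix tether was thus the more abundant transcript in every library.

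TGFBR2, the ligand-binding TGF-beta receptor, varied least. It measured 6.48 and 6.33 RPKM in A1 and A2 and 6.28 and 6.64 RPKM in P1 and P2, a CV of 2.53%. The posterior libraries lay on both sides of the anterior ones, and the log2 difference was -0.011 ± 0.24 (standard error), or -0.14 after median ratio scaling. In P1, where TGFB3 was at its lowest and the smooth muscle genes at their highest, TGFBR2 was within 1.06-fold of its level in every other library.

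**Figure D2:**
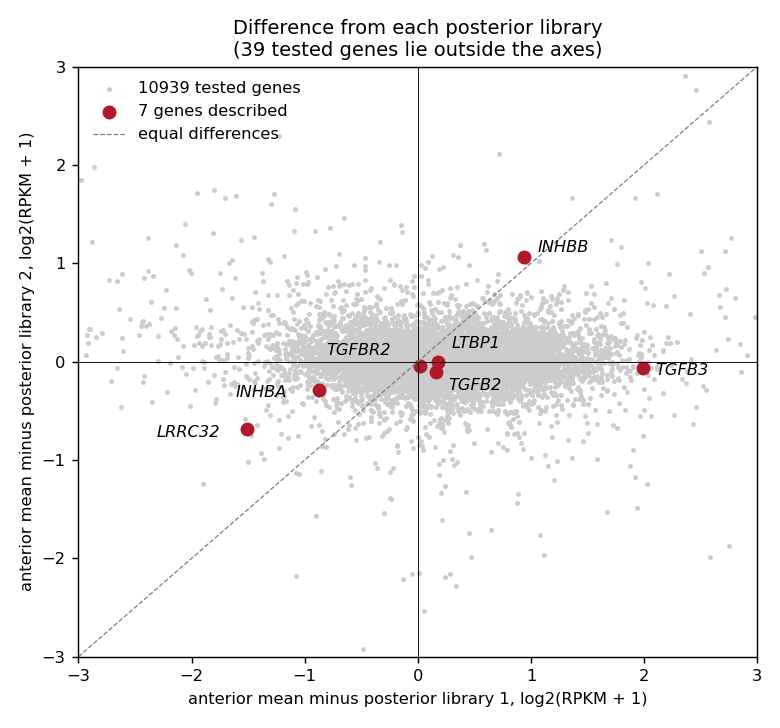
Anterior mean minus posterior library 1 (horizontal axis) against anterior mean minus posterior library 2 (vertical axis), both as log2(RPKM + 1), for the 7 genes (red) and 10939 tested genes (grey; 39 lie outside the axes). INHBB lies near the dashed line of equal differences (0.94 and 1.06), LRRC32 below 0 on both axes (-1.51 and -0.69), and TGFB3 far from 0 on the horizontal axis only (1.99 and -0.06).

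By level, TGFB3 and LTBP1 led the set and INHBB was last in every library. TGFB3 was above LTBP1 in A1, A2 and P2, at 2.18, 2.16 and 2.26 times its level, and below it in P1, at 0.605 times. TGFB2, TGFBR2 and INHBA were neighbours in the order, with means over the 4 libraries of 5.003, 6.433 and 7.46 RPKM. TGFB2 was below TGFBR2 in every library, with ranges of 4.23 to 5.92 RPKM and 6.28 to 6.64 RPKM. INHBA, at 2.95 to 10.7 RPKM, spanned both, and its place in the order changed with the library. LRRC32 was above INHBA in A2, P1 and P2 and just below it in A1, and in P1 it came close to TGFB3 (25.01 against 26.85 RPKM).

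Across all 10939 genes that passed the expression filter, limma called 0 genes at an adjusted p under 0.05 (0% of genes tested), and 103 had an unadjusted p under 0.05. The smallest adjusted p was 0.964. For 2 libraries a side, the smallest two-sided p of an exact permutation test is 0.333. Sizes were therefore read by a descriptive rule: at least a 2-fold difference on the log2(RPKM + 1) scale with libraries that do not overlap. It was met by 91 genes (0.832%), of which 70 were higher in anterior tissue (0.64%) and 21 in posterior tissue (0.192%). INHBB was among the 70 and LRRC32 among the 21, and since both were chosen with this contrast known, nothing is read from that. As deposited, with a pseudocount of 1, both sat close to the limit of the rule. The log2 difference of INHBB was 0.93 after median ratio scaling and 0.90 after quantile normalization, under the limit of 1. It was 1.83 with a pseudocount of 0.1, and ran from 0.94 to 1.06 with a library left out. That of LRRC32 was -1.23 and -1.19 after the same scalings, and -0.98 without A2 and -0.69 without P1.

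**Figure D3:**
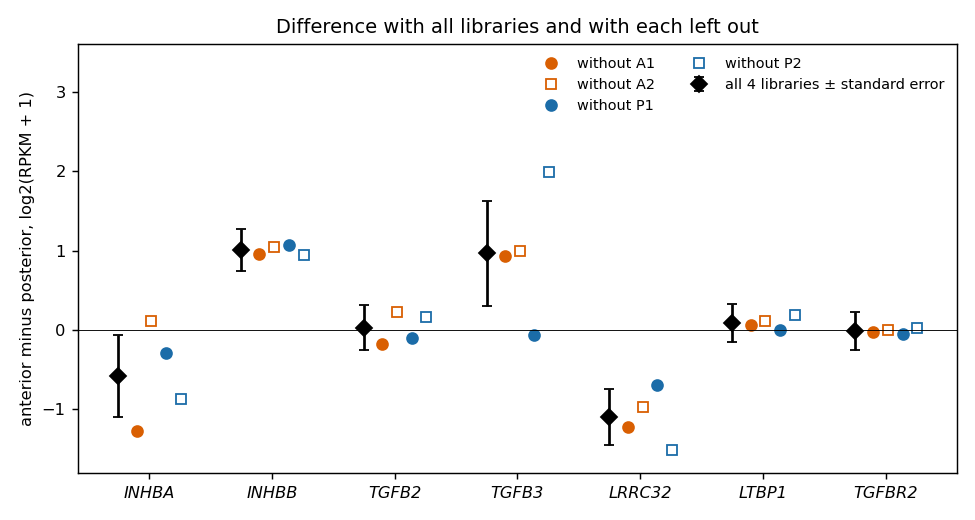
Difference between sides for each gene, anterior minus posterior, as log2(RPKM + 1) on the vertical axis: black diamonds are all 4 libraries with the standard error, coloured symbols the same difference with 1 library left out. INHBB stays between 0.94 and 1.06 and LRRC32 between -1.51 and -0.69, TGFB3 runs from -0.06 to 1.99, and INHBA runs from -1.28 to 0.11.

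The other genes of the pathway were taken from lists by role. Of 70 genes listed, 17 were not matched by name and are not analysed here, among them TGFB1, TGFBR1, SMAD4 and SMAD7. Besides the 7 genes above, 46 were in the table and 40 were tested. None of the 40 passed the limma threshold. The unadjusted limma p was under 0.05 for 2 of them, FBN2 and LOX, and for 103 of all 10939 tested genes. The lists were chosen with earlier results of these data known, so nothing is read from that count. Of the 40, 14 had non-overlapping sides with anterior higher and 0 with posterior higher, where 18.9% and 7.25% of all tested genes did. After median ratio scaling these were 11 and 2, against 13.4% and 12.7% of all genes. Their median log2 difference was 0.18 against 0.11 over all tested genes, and 0.11 against 0.02 without P1. P1 was the lowest library for 26 of the 40 (65%, against 54.5% of all tested genes).

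Among the other ligands, only GDF3, a nodal-related factor listed as CVG1, was tested. It measured 17.1 and 22.0 RPKM in A1 and A2 and 4.31 and 18.4 RPKM in P1 and P2, lowest in P1 as TGFB3 was, with a log2 difference of 1.01 (standard error 0.62) that was 0.07 without P1. MSTN (myostatin, listed as GDF8) did not exceed 0.755 RPKM, and NODAL did not exceed 0.0426 RPKM.

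All 8 tested genes for latency and release besides LRRC32 and LTBP1 had positive differences, as did 64.6% of all tested genes. The median of the 8 was 0.36 (0.23 without P1), but FBN1 and ITGAV turned negative after median ratio scaling. FBN1, ITGAV and ITGB8 did so without P1. As deposited and with all 4 libraries, LRRC32 was the only negative one of the 10. FBN2, a microfibril protein, measured 8.58 and 9.33 RPKM against 1.44 and 5.57 RPKM. Its log2 difference of 1.31 (standard error 0.49) was 0.60 without P1. THBS1, a matrix protein that can release latent TGF-beta, measured 33.4 and 21.8 RPKM against 19.9 and 17.8 RPKM. The precursor protease gene FURIN had a difference of 0.44 (standard error 0.29), or 0.22 without P1, and the matrix protein gene LTBP2 one of 0.42 (standard error 0.26), and in both the sides did not overlap. NRROS, the relative of LRRC32 that holds latent TGF-beta on mammalian macrophages, measured 0.942 and 1.04 RPKM in A1 and A2 and 0.685 and 0.935 RPKM in P1 and P2, below the filter. LRRC32 was thus the more abundant of these surface tethers in all 4 libraries.

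Of 6 tested receptors besides TGFBR2, the difference was positive for 5, where it was for 64.6% of all tested genes. For 4 the sides did not overlap, with anterior higher, where 18.9% of all tested genes did so. These 4 were the activin receptors ACVR2B (difference 0.63, standard error 0.39), ACVR1B (0.61, standard error 0.32) and ACVR2A (0.50, standard error 0.29), and endoglin, ENG (0.56, standard error 0.26), a TGF-beta co-receptor of endothelium. Without P1 they were 0.16, 0.29, 0.25 and 0.40. After median ratio scaling and after quantile normalization, 3 of the 6 had anterior higher without overlap, against 13.4% and 13.3% of all tested genes. ACVR2A measured 17.0 and 14.2 RPKM in A1 and A2 and 8.81 and 12.9 RPKM in P1 and P2. TGFBR3, the betaglycan co-receptor, went the other way in P1 only, at 21.5 RPKM against 11.9 to 12.3 RPKM elsewhere. CFC1, a co-receptor for nodal-related ligands, was below the filter but measured 19.5 RPKM in P1 and 0.154 to 0.649 RPKM in the other libraries, and was singled out after its values were seen.

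**Figure D4:**
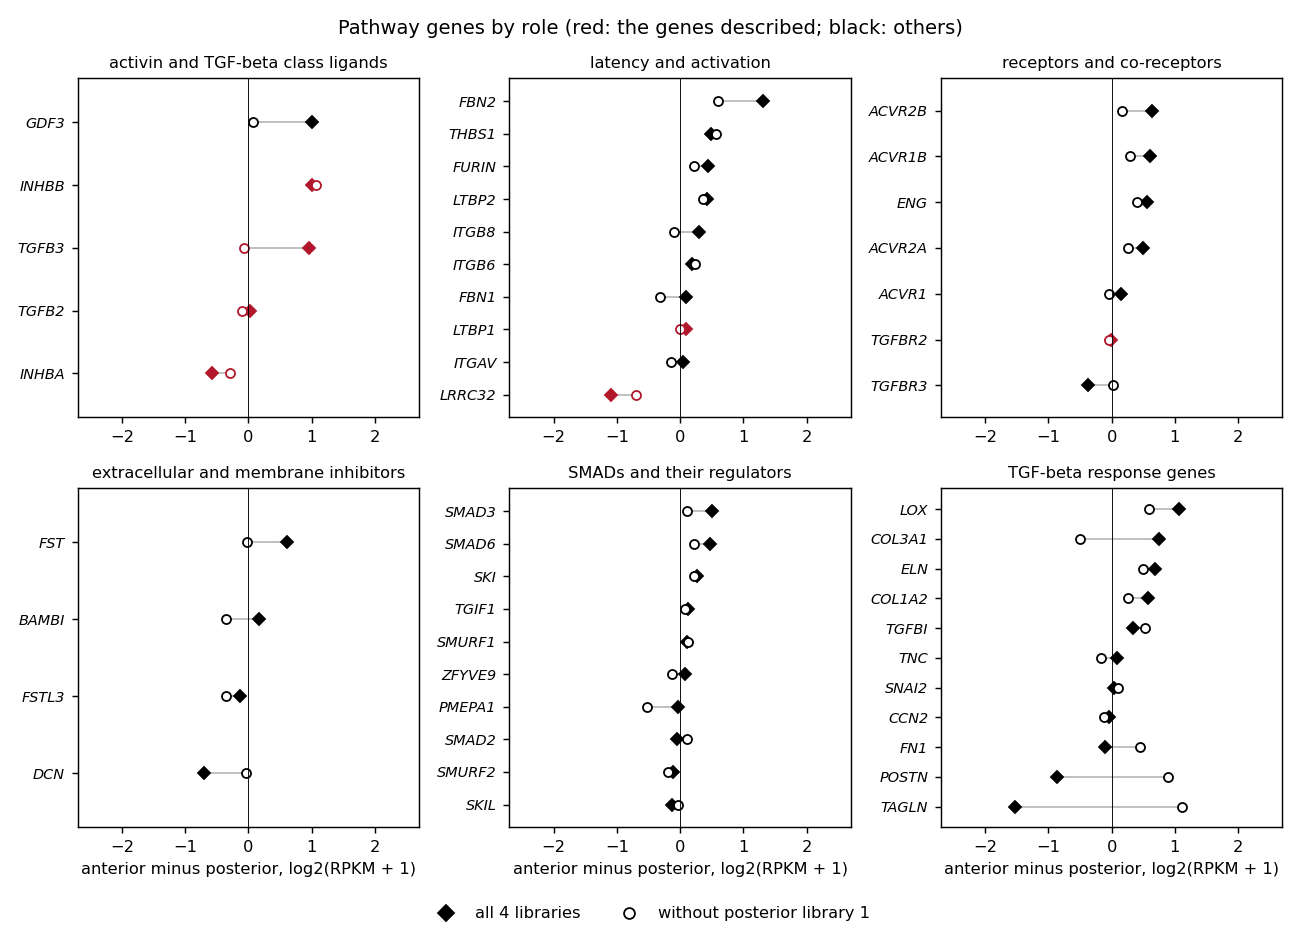
Difference between sides, anterior minus posterior as log2(RPKM + 1) (horizontal axes), for tested pathway genes grouped by role: diamonds are all 4 libraries and open circles the value without posterior library 1. Red marks the genes described and black the others. LRRC32 (-1.10) is the only negative value among latency genes as deposited with all 4 libraries. FBN1, ITGAV and LTBP1 turn negative after median ratio scaling, and these and ITGB8 without P1. Genes that come near 0 without P1 include TGFB3, GDF3, FST, DCN and TGFBR3. Others cross 0 by more: TAGLN from -1.53 to 1.12, POSTN from -0.86 to 0.89 and COL3A1 from 0.75 to -0.49.

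The inhibitors, SMADs and response genes showed no common direction. Of 4 tested inhibitors 2 had positive differences, and the median, 0.02, turned to -0.19 without P1. FST had a difference of 0.61 (standard error 0.45) that was -0.02 without P1, and DCN, a proteoglycan that binds TGF-beta, was highest in P1 (1561 RPKM against 492 to 749 RPKM). Of 10 tested SMADs and regulators 6 had positive differences, and 3 did after median ratio scaling, where the median of 0.095 turned to -0.036. SMAD6, an inhibitory SMAD, measured 5.35 and 5.04 RPKM against 2.77 and 4.32 RPKM. The corepressor gene SKI had a difference of 0.27 and TGIF1, another corepressor, one of 0.12 that was 0.071 without P1 and turned to -0.019 after median ratio scaling.

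Genes known to rise with TGF-beta in cultured cells had a median difference of 0.08 over 11 tested members, 0.45 without P1, 0.57 without A2, 0.085 after quantile normalization and -0.059 after median ratio scaling. The sides did not overlap for 3 of the 11, all with anterior higher. Of all tested genes, 18.9% did so with anterior higher and 7.25% with posterior higher. The 3 were the collagen crosslinking enzyme LOX (1.06, standard error 0.37), elastin, ELN (0.68, standard error 0.28), and COL1A2. COL1A2, a fibrillar collagen chain, measured 831 and 614 RPKM against 389 and 594 RPKM. Without P1 these differences were 0.59, 0.49 and 0.27. POSTN, listed as OSF-2, was highest in P1 at 96.5 RPKM against 7.57 to 20.5 RPKM elsewhere, and so was TAGLN, which is also a smooth muscle marker, at 821 RPKM against 20.1 to 61.9 RPKM. COL3A1, another fibrillar collagen, was lowest there at 111 RPKM against 399 to 630 RPKM. The response genes that stood out in P1 thus went both ways in that library.

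The genes most like each member were found from the root mean square distance between log2(RPKM + 1) profiles over the 4 libraries, each centred on its mean, among 6825 named genes with a mean of at least 5 RPKM. The profiles of LTBP1, TGFBR2 and TGFB2 were common ones, with 958, 934 and 195 genes within 0.1. The nearest were VAMP4, GEMIN8 and PAIP1 to LTBP1, ULK2, ZZZ3 and CSNK1D to TGFBR2, and GNPTAB, TOM1 and STX17 to TGFB2. TGFB3 had 5 genes within 0.1, the nearest being CERS1 (0.065), SLC6A9 (0.085) and the ligand gene WNT5A (0.094). WNT5A measured 66.5, 75.6, 17.6 and 70.6 RPKM in A1, A2, P1 and P2, with the same single low library. INHBA, INHBB and LRRC32 had 0 genes within 0.1. The nearest to LRRC32 were the coagulation factor gene F10 (0.15), STK17A (0.16) and RASD2 (0.17), a small GTPase gene at 40.9, 33.6, 96.7 and 74.9 RPKM in A1, A2, P1 and P2. The nearest to INHBB were EPB41 (0.17), BF1 (0.19) and EPS8 (0.20), and to INHBA CHGB (0.16), TTC39B (0.19) and EXPH5 (0.20). With 4 libraries, a short distance describes only similar differences on this log2 scale in these libraries, and the order of close values can differ. The pseudocount compresses INHBB, with a mean of 1.23 RPKM, more than the genes compared with it. Its nearest gene, EPB41, measured 8.26 and 7.31 RPKM in A1 and A2 and 3.69 and 4.57 RPKM in P1 and P2, a smaller fold in RPKM than that of INHBB.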

How the data were processed

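Per the labels, dissected tissue went into Trizol and TruSeq libraries were sequenced. The authors deposited RPKM values for 15386 genes, named for Ensembl release 78. TopHat2, Partek and galGal4 are listed, per the submitters' processing notes; the counting rule is not stated. Members and lists were chosen with earlier results of these data known. List genes were matched by symbol (46 of 70), by an older name (4) or through an NCBI RefSeq synonym (3, table of another assembly, names only). No positions or sequences are given.

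Values were compared as log2(RPKM + 1), which understates fold changes at low levels. Genes reaching 1 RPKM in 2 or more libraries (10939) were fitted together in limma 3.58.1, R 4.3.3, with eBayes and trend. The p-values are two-sided and Benjamini-Hochberg adjusted. To the 2 residual degrees of freedom eBayes adds prior ones, drawing each gene's variance toward that of genes at a similar level. The standard errors are therefore not each gene's own spread alone. Standard errors are those of this fit. It was run on simulated data that gave every library a common spread, taken from A1 and A2. No simulated library stood apart as P1 did, so the standard errors were not checked for data like these. Relative depth came from ratios of values under 0.3 RPKM between libraries, 44.9% to 46.9% of which lay within 0.002 (natural log) of ratios of small whole numbers. The rest did not, so read counts were not rebuilt. Beyond the members, the text names FST, the other ligands and, per role list, up to 4 genes with the largest difference among those whose sides do not overlap. Other genes were picked with their values in view. The fit was repeated with pseudocounts of 0.1 and 0.5, without a filter, with a 5 RPKM filter, with 2 other scalings, with eBayes robust or without trend, with a block for the library number, and without each library. Plots used Python 3.11.15 and matplotlib 3.10.9.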

Additional observations from a re-analysis of the deposited data

How the results depend on the processing

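Of the alternatives with all 4 libraries, only the pseudocounts and the scalings can change a log2 difference. The filters, the eBayes options and the block cannot, and INHBB did not pass the 5 RPKM filter. Over the main setting, the pseudocounts and the scalings, INHBB lay between 0.90 and 1.83 and LRRC32 between -1.23 and -1.10. TGFB3 lay between 0.82 and 0.98 and INHBA between -0.71 and -0.58. Small differences changed sign. Median ratio scaling gave -0.091 for TGFB2 and -0.053 for LTBP1, and quantile normalization -0.13 for TGFB2; the cause was not tested. The list medians turned to -0.097 (inhibitors), -0.036 (SMADs) and -0.059 (response genes) with median ratio scaling, and to -0.13 (inhibitors) and -0.052 (SMADs) with quantile normalization. With each library left out in turn, INHBA ran from -1.28 to 0.11, TGFB2 from -0.17 to 0.23, TGFB3 from -0.063 to 1.99, LTBP1 from -0.0067 to 0.18 and TGFBR2 from -0.046 to 0.024. In the same way the list medians ran from -0.063 to 0.94 (ligands), -0.19 to 0.39 (inhibitors) and -0.038 to 0.22 (SMADs), the lowest without P1, P1 and A1 and the highest without P2, and from 0.11 (without A1) to 0.57 (without A2) for the response genes.

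The count of genes at least 2-fold apart without overlap, 91, was 210 with a pseudocount of 0.1 and 138 with 0.5, and ran from 102 (without P1) to 1378 (without P2) with a library left out, where 1 side is a single library. Its split, 70 anterior and 21 posterior, was 45 and 35 under median ratio scaling, and 46 and 37 under quantile normalization. With a library left out, the count of limma calls ran from 0 to 297, and that within the role lists from 0 to 8. Among these settings calls above 0 came only without P2, where 10777 genes were tested. P1 then stood alone for its side and was assumed to vary like the anterior libraries. A single posterior library has no spread of its own, so these counts are not read as differences between the sides. The differences of TGFB3 and LRRC32 without P2, 1.99 and -1.51, are likewise descriptions only. With a replicate block for the library number, 2 genes passed and 0 of the role lists did. No label pairs these numbers across sides. The differences between libraries 1 and 2 correlated across genes between the sides (r = 0.49 over 10939 genes, which are not independent).

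The number of reads behind the low posterior INHBB values is unknown.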
